A study of Rattus norvegicus with 16 samples.

Results

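Potassium channels set the resting potential of neurons, shape the action potential and limit repetitive firing. The 8 genes described here, Kcna1, Kcna2, Kcnc1, Kcnd2, Kcnd3, Kcnq3, Kcnj3 and Kcnj6, encode pore-forming subunits of 5 kinds of current found in hippocampal neurons. They were chosen by name, and every array probe whose RefSeq accession maps to one of them was taken, which gave 13 probes among the 15715 named genes on the array. All 13 probes were tested, within a fit of 20278 probes that covered 11083 named genes.

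Expression was measured on 1-colour Agilent rat arrays in primary cultures of hippocampal neurons from Sprague-Dawley rats at embryonic day 18. Cultures were left untreated or received 5 µM hydroxyurea, an inhibitor of ribonucleotide reductase, for 2, 6, 12 or 24 h, with 3 samples in each of the 5 groups. Per the growth protocol, hydroxyurea was added only after a change to medium whose B27 was free of antioxidants. The labels give a culture age of 6 to 9 days in the design text and of 6 to 8 days in vitro in the growth protocol, they name hippocampal tissue as the source of RNA in the extraction protocol, and they do not give the time that untreated cultures spent in the new medium. There were 16 arrays on 2 slides for the 15 samples, since RNA of untreated replicate 1 was run once on each slide. Slide 1 held replicates 1 and 2 of the untreated, 2 h and 6 h groups, and slide 2 held their replicate 3. Slide 2 also held replicates 2 and 3 at 12 h and 1 and 2 at 24 h. Slide and replicate number thus largely coincided. Nothing in the labels says that replicates were separate cultures, so by the labels alone p-values reflect sample-to-sample spread that may be only technical.

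The share of probes well above background, a call of the scanner software, was 64.7% to 70.4% per array, and no spot was saturated. Repeat spots of a probe differed by a median CV of 3.60% to 7.38% on 14 arrays, of 11.9% on the slide 1 array of untreated replicate 1 (its first array) and of 22.4% on the array of 12 h replicate 3, which also stood apart on the first principal component (29.4% of the variance). All 9 neuronal markers measured were well above background on every array, and their summed log2 level was 6.70 to 6.80 in untreated samples and 6.56 to 7.09 in treated ones. Markers of other cell types were present too: 9 of 10 markers of astrocytes, 9 of 10 of the oligodendrocyte lineage, 5 of 10 of microglia and 3 of 6 of endothelium were well above background on every array. This also held for all 5 measured markers of dividing progenitors and for 5 of 7 of fibroblasts and pericytes. Itgam and C1qc, of microglia, Cldn5, Flt1 and Tek, of endothelium, and Rgs5, of the fibroblast and pericyte list, were well above background on none. The summed log2 level of fibroblast and pericyte markers differed by replicate number. In untreated, 2, 6, 12 and 24 h samples it was 0.51, 0.41, 0.44, 0.46 and 0.49 for replicate 2. For replicate 3 it was 1.44, 1.69, 1.52, 1.34 and 0.69. Whether the numbers mark separate cultures was not tested. Since the arrays measured bulk RNA, fewer cells of a type and less RNA per cell cannot be told apart.

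The members belong to 5 functional groups. Kcna1 and Kcna2 encode Kv1 subunits, which form low-threshold channels of axons, and Kcnc1 encodes a Kv3 subunit, whose fast gating permits the high firing rates of many GABAergic interneurons. Kcnd2 and Kcnd3 encode the Kv4 subunits of the transient A-type current of cell bodies and dendrites, where KChIP and DPP proteins assist them. Kcnq3 encodes a Kv7 subunit of the M-current, a brake on repetitive firing that muscarinic receptors suppress. Kcnj3 and Kcnj6 encode GIRK1 and GIRK2, subunits of inward rectifiers that G protein βγ subunits open downstream of receptors such as GABA-B.

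The 250 bases before the annotated transcription start are shown for Kcnj6 and Kcnc1, since these were the only members with an unadjusted p under 0.05 at any time. They come from RefSeq on the GRCr8 assembly, where 5 of the 8 members had an entry (Kcna2, Kcnc1, Kcnd2, Kcnd3 and Kcnj6). Kcnc1 lies on the plus strand at chr1:106038997-106039246, and Kcnj6 on the minus strand at chr11:47778349-47778598. Capitals mark GC boxes, the letters GGGCGG on either strand.
Kcnc1: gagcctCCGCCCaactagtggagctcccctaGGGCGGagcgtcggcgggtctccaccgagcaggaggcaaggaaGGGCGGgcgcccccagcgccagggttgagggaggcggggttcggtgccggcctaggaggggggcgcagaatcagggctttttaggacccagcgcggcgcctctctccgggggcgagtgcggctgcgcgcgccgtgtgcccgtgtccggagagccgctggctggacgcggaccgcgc
Kcnj6: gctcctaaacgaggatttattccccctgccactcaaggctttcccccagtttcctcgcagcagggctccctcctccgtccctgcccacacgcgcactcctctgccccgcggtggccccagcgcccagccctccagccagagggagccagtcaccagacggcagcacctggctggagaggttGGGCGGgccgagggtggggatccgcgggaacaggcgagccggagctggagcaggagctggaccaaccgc

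Both windows were rich in G and C: the GC content was 74.4% for Kcnc1 and 69.2% for Kcnj6, against a median of 51.2% over 33469 promoters of the same length. Kcnc1 had 3 GC boxes and Kcnj6 had 1, a motif present in 30.5% of all these promoters. The windows of Kcna2 and Kcnd3 held 3 and 1 GC boxes, and that of Kcnd2 none. The core of the hypoxia response element (ACGTG, on either strand, in 16.6% of promoters) occurred once, in Kcnd2. The cAMP response element (TGACGTCA, 1.59%) and the E-box (CACGTG, 5.59%, which contains ACGTG) occurred in none of the 5 windows. These matches describe letters, not bound sites.

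The comparison of each treatment time with the untreated group asked whether hydroxyurea altered expression in the bulk RNA of these cultures. No member passed the threshold of an adjusted p under 0.05 at 2, 6, 12 or 24 h, in the mean of the 4 times or in the F test among the 4 times, and the background of calls was 0% of 20278 probes in each of these 6 tests (limma, Benjamini-Hochberg adjustment). The smallest adjusted p of a member was 0.997, at 12 h. At an unadjusted p under 0.05, limma gave 0 of 13 member probes at 2 h, 1 at 6 h (Kcnc1, higher), 1 at 12 h and 1 at 24 h (Kcnj6, lower), and 0 in the mean and in the F test. Over all probes these counts were 248, 156, 485 and 177 at the 4 times, 336 in the mean and 231 in the F test, or 0.769% to 2.39% of the probes.

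The members had no common direction over time. Of the 13 probes, 8 were higher and 5 lower at 2 h, with a median log2 difference of 0.08, and 3 were higher and 10 lower at 6 h, with a median of -0.07. At 12 h 7 were higher and 6 lower, with a median of 0.01, and at 24 h 4 were higher and 9 lower, with a median of -0.03. Over all tested probes the share with a lower mean was 50.1%, 52.4%, 44.5% and 45.8% at these times, with medians of -0.00, -0.01, 0.02 and 0.01.

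**Figure D1:**
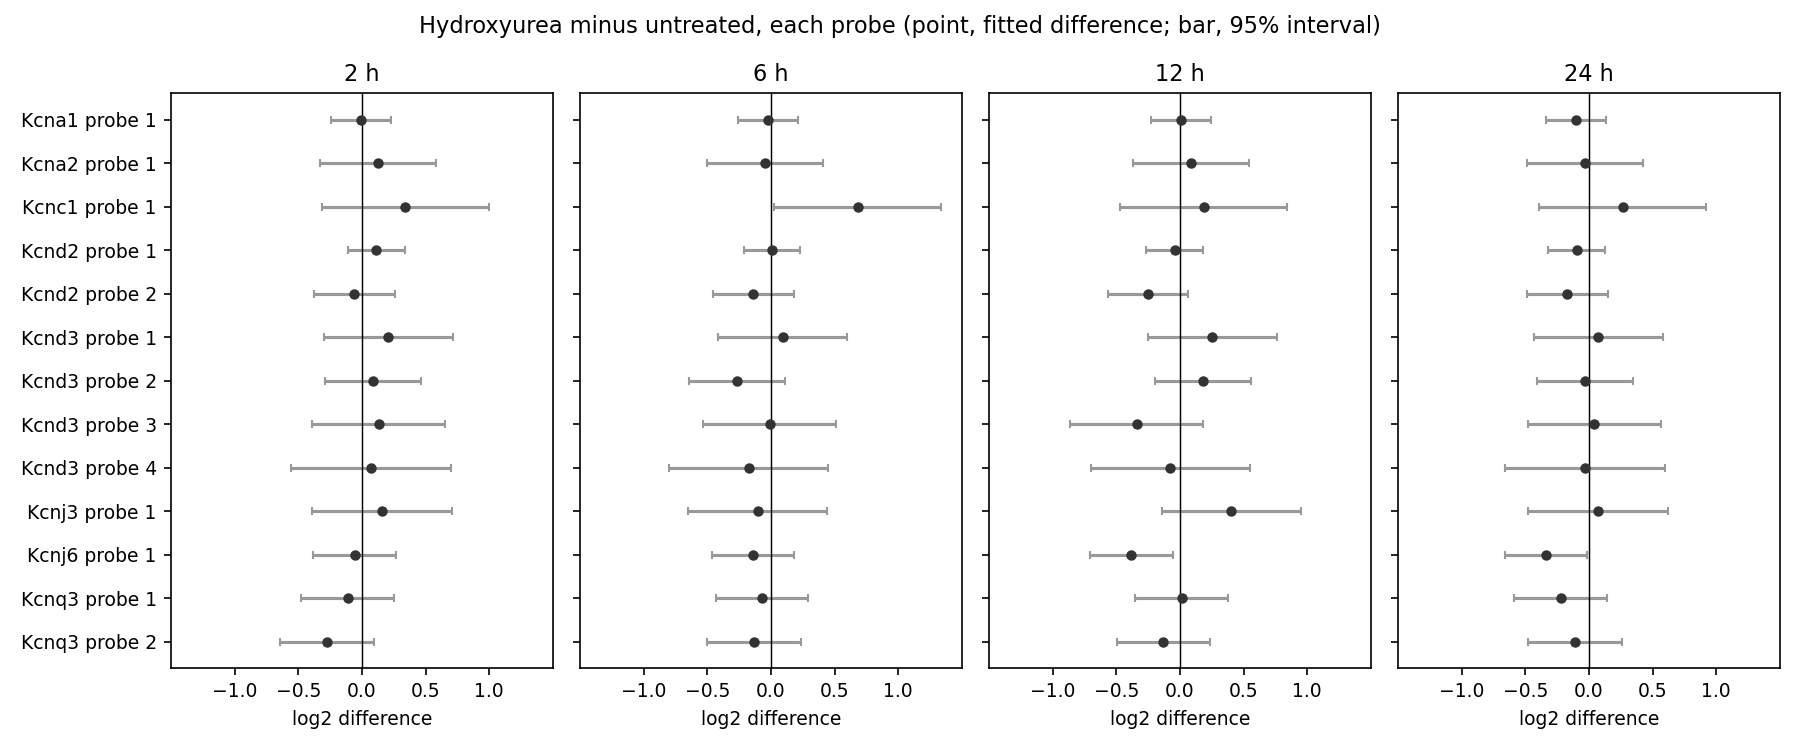
Fitted log2 difference of each of the 13 probes from the untreated group at 2, 6, 12 and 24 h of hydroxyurea (point), with its 95% interval (bar), from limma over 15 samples. The intervals of Kcnc1 at 6 h and of Kcnj6 at 12 and 24 h leave out 0 before adjustment, and all others include it.

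Separation of single samples gave the same sparse picture. At 2 h the 3 samples of Kcnq3 probe 2 lay below all 3 untreated samples, at 6 h those of Kcnc1 lay above them, and at 12 h those of Kcnj6 lay below them. At 24 h no member probe was apart from the untreated group. Over all 20278 probes, groups did not overlap in the lower direction for 3.09%, 2.4%, 2.03% and 1.67% at 2, 6, 12 and 24 h, and in the higher direction for 3.18%, 1.49%, 3.14% and 1.36%. A share of 7.69% of the members is 1 probe of 13, and is no result about the members beside that background.

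**Figure D2:**
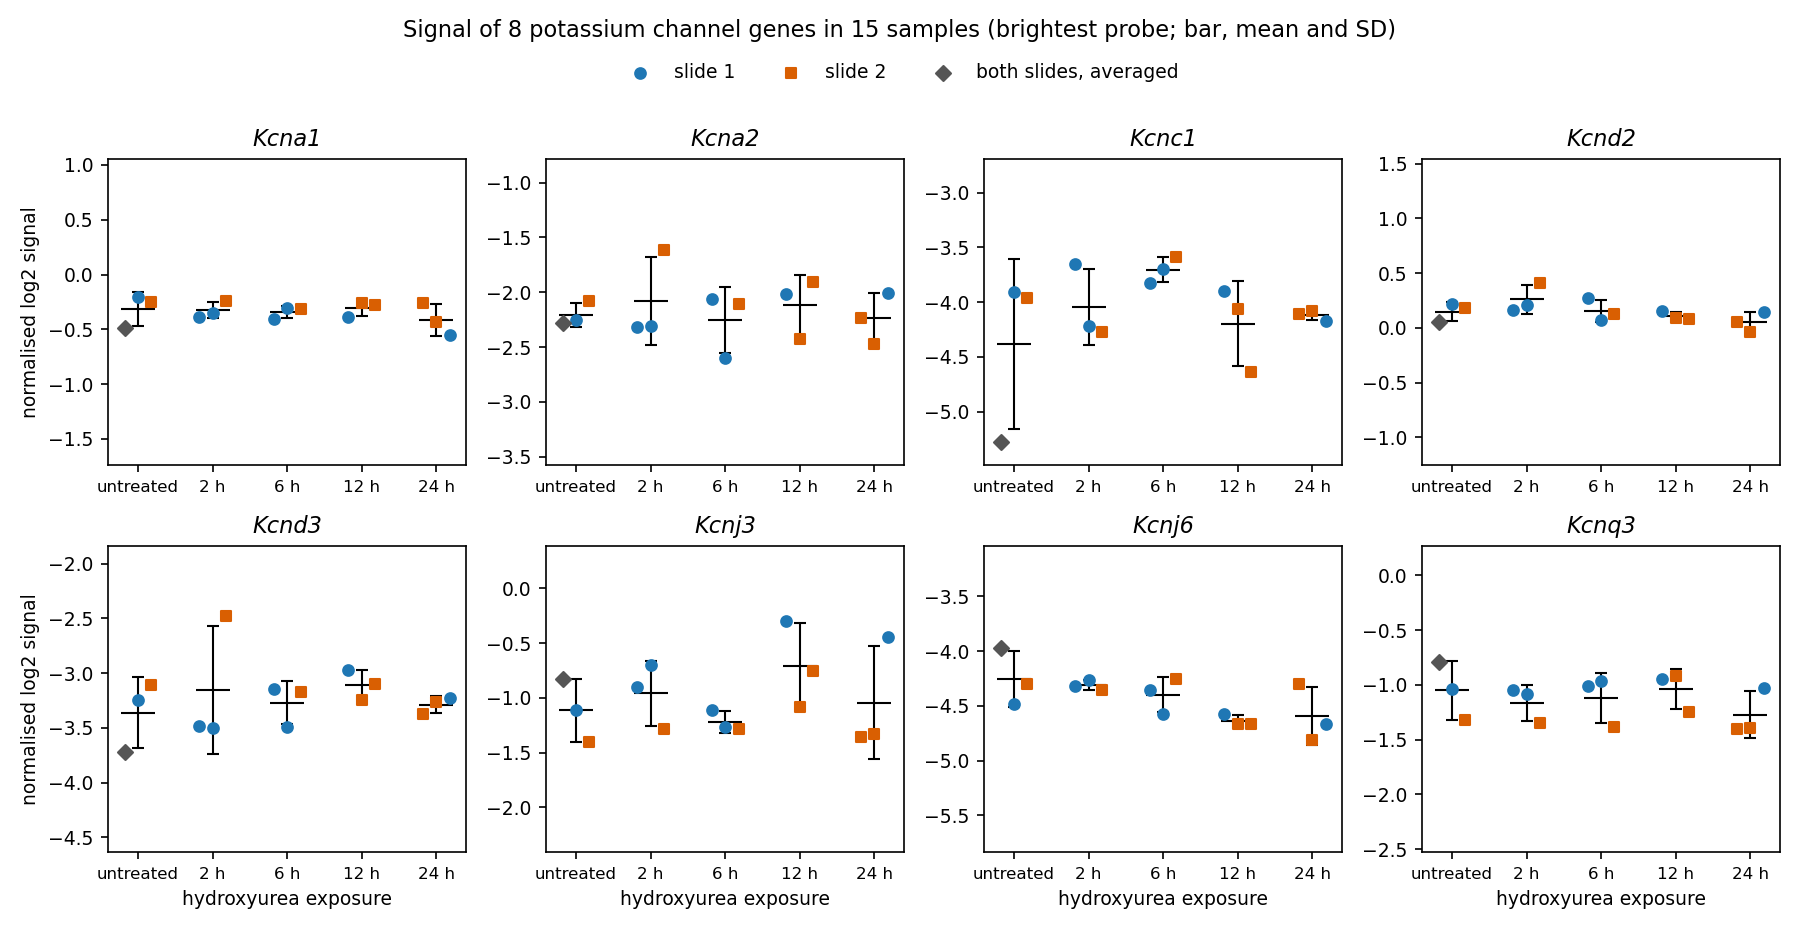
Normalised log2 signal of each gene, by its probe of highest mean, in the 15 samples (points, coloured by slide), with the mean and SD of the 3 samples of each group (bars). Every panel spans the same height in log2 units but has its own zero, so levels compare within a panel only. Kcna1 and Kcnd2 vary least, untreated replicate 1 sits far below the other samples for Kcnc1 and above them for Kcnj6, and the highest Kcnj3 values at 12 and 24 h come from slide 1.

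All levels that follow are log2 signals relative to the 75th percentile of the array, so 0 is the signal at that percentile, and levels of different probes are not compared with each other. For the probe of highest mean of each of the 8 genes, the groups were ranked by their mean. In each of these orders every pair of neighbouring groups differed by less than the larger of their SDs.

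Among the axonal Kv1 subunits, Kcna1 (probe A_44_P231457) varied little between samples. Its level was -0.49, -0.21 and -0.25 in the 3 untreated samples, -0.39, -0.35 and -0.24 at 2 h, and -0.40, -0.31 and -0.32 at 6 h. The 12 h samples gave -0.39, -0.26 and -0.28, and those at 24 h -0.26, -0.44 and -0.55. The lowest sample was 24 h replicate 3 and the highest untreated replicate 2, and every treated group overlapped the untreated one. The log2 difference was -0.01 at 2 h, -0.03 at 6 h and 0.01 at 12 h, and at 24 h it was -0.10 (SE 0.11), with a 95% interval of -0.34 to 0.14. A halving of Kcna1 RNA would lie outside all of these intervals.

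Kcna2 (probe A_44_P217295), the partner of Kcna1 in many heteromeric channels, had a wider spread. It measured -2.28, -2.26 and -2.08 in untreated samples and -2.32, -2.30 and -1.61 at 2 h. The third sample at 2 h was the highest of all 15 and the second at 6 h (-2.60) the lowest. The differences ran from -0.05 (SE 0.21) at 6 h to 0.13 (SE 0.21) at 2 h. Without 2 h replicate 3 the value at 2 h was -0.10, so the direction there rested on that sample. All 4 treated groups overlapped the untreated one.

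Kcnc1 (probe A_44_P426079), the Kv3 subunit, had the largest fitted difference of the 13 probes. Its level was -5.28, -3.91 and -3.96 in untreated samples, -3.65, -4.22 and -4.27 at 2 h, and -3.83, -3.69 and -3.59 at 6 h. At 12 h it was -3.90, -4.06 and -4.64, and at 24 h -4.11, -4.08 and -4.17. The 6 h samples were above all untreated samples, and untreated replicate 1 was the lowest of all 15 samples. The log2 difference at 6 h was 0.68 (SE 0.31, 1.60-fold higher), with an unadjusted p of 0.0433 and an adjusted p of 1.00 from limma.

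The low value of untreated replicate 1 came from 1 spot of 1 array. The probe is printed on 2 spots per array, and on the first array of this sample they read -8.41 and -4.31, from processed intensities of 5.15 and 88.3. The low spot, with a median pixel signal of 38 over a local background of 33, was the only Kcnc1 spot that was not well above background, and it carried no outlier flag. On the repeat array of the same sample the spots read -4.21 and -4.18. The first array was thus -2.17 apart from the repeat array for this probe, a gap exceeded by 1.53% of the tested probes.

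With the repeat array alone, the Kcnc1 difference at 6 h was 0.32, and it was -0.02, -0.18 and -0.10 at 2, 12 and 24 h. With the first array alone it was 1.04 at 6 h. Without untreated replicate 1 the value at 6 h was 0.23, and those at 2, 12 and 24 h turned from 0.34, 0.18 and 0.27 to -0.11, -0.26 and -0.18. Interneuron markers, beside which Kcnc1 is often expressed, had a summed log2 level of 4.41 to 4.75 in untreated samples and of 4.34 to 4.79 at 6 h. Of the 9 measured interneuron markers, 3 were higher and 6 lower at 6 h, with a median of -0.02.

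**Figure D3:**
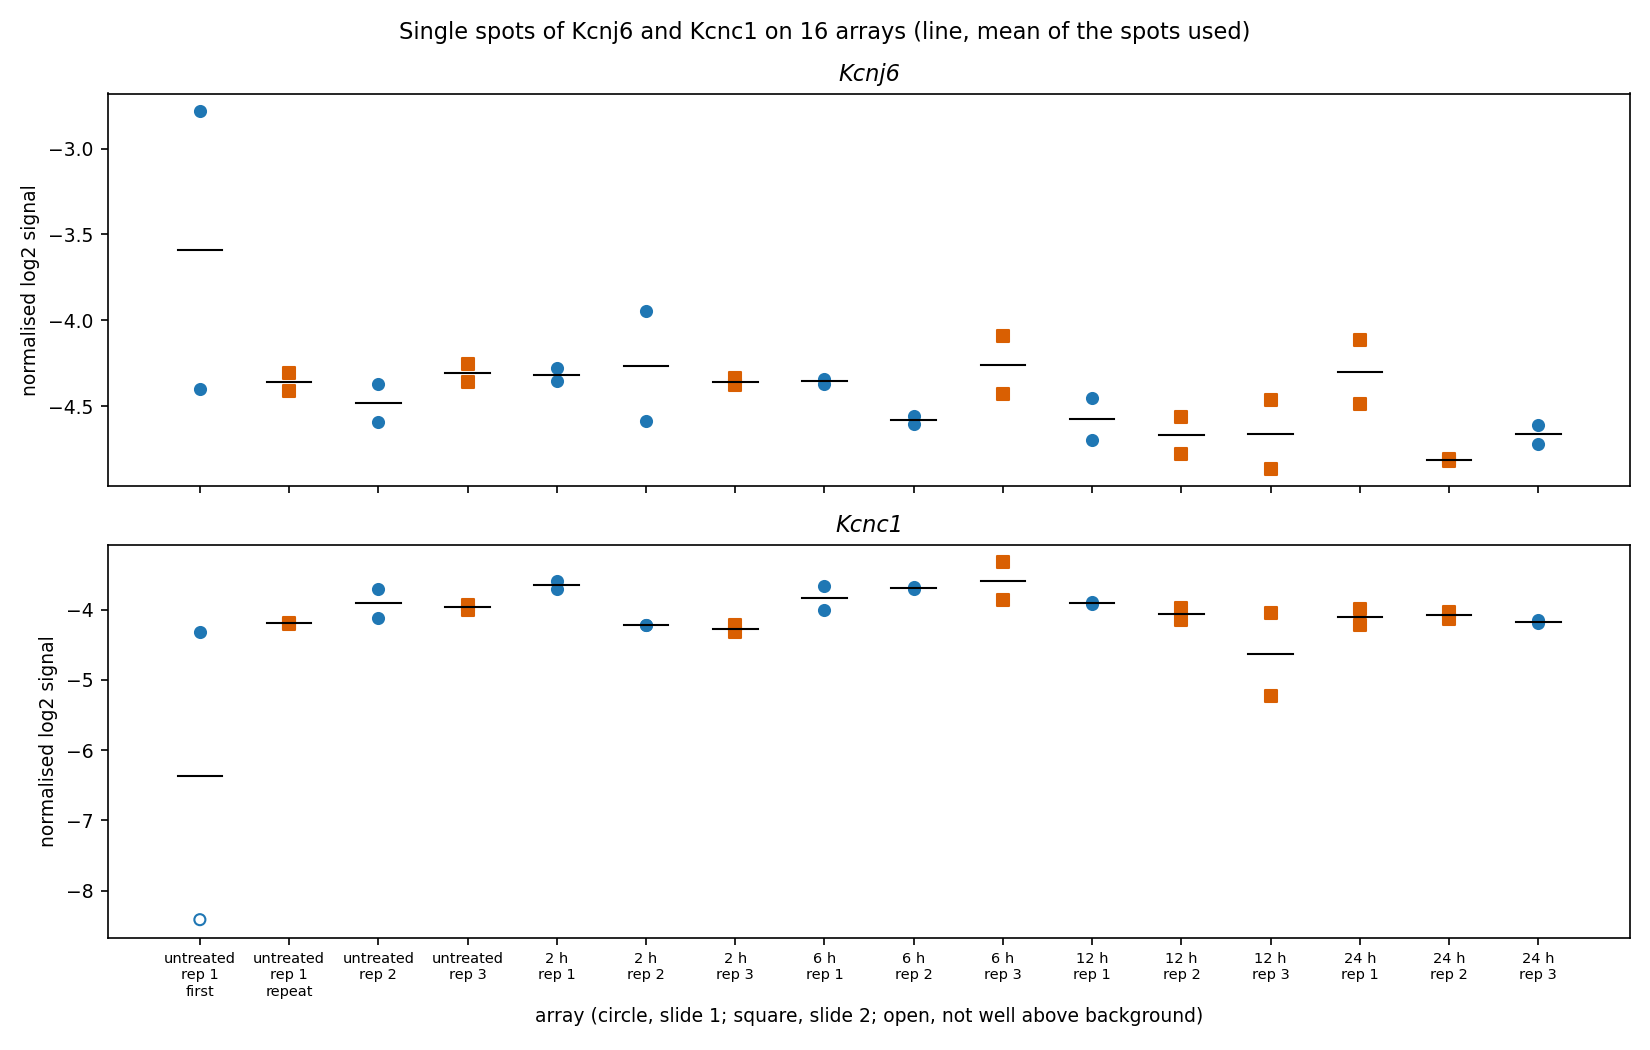
Normalised log2 signal of every spot of the Kcnj6 probe (top) and the Kcnc1 probe (bottom) on the 16 arrays, with the mean of the spots of an array as a line; circles are slide 1, squares slide 2, and the open symbol was not well above background. On the first array of untreated replicate 1, Kcnj6 has a spot at -2.78 beside one at -4.40, and Kcnc1 a spot at -8.41 beside one at -4.31.

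The A-type subunit gene Kcnd2 was read by 2 probes. Probe 1 (A_64_P154548) measured 0.05, 0.21 and 0.18 in untreated samples, 0.16, 0.21 and 0.41 at 2 h, and 0.27, 0.08 and 0.12 at 6 h. At 12 h it gave 0.15, 0.09 and 0.08, and at 24 h 0.06, -0.04 and 0.14. The groups overlapped throughout, with 2 h replicate 3 highest and 24 h replicate 2 lowest. Its differences were 0.11, 0.01, -0.04 and -0.10 at the 4 times, each with an SE of 0.10.

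Probe 2 of Kcnd2 (A_42_P539787), which is printed on 10 spots per array, gave -0.06, -0.14, -0.25 and -0.17, each with an SE of 0.15. The samples behind the 12 h value measured -0.85, -0.76 and -1.33, against -0.56, -0.88 and -0.74 in untreated ones. The low sample was 12 h replicate 3, whose spots fell apart: 4 of the 10 read -2.40 to -1.83 and the other 6 read -0.96 to -0.56. Without this sample the 12 h difference was -0.08. The probes disagreed in sign at 2 and 6 h, and their correlation over the 15 samples was 0.20.

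Kcnd3, the other A-type subunit gene, had 4 probes. Probe 1 (A_64_P050540) measured -3.72, -3.25 and -3.11 in untreated samples, -3.49, -3.50 and -2.48 at 2 h, and -3.14, -3.50 and -3.17 at 6 h. At 12 h it gave -2.97, -3.24 and -3.10 and at 24 h -3.37, -3.26 and -3.23. Again 2 h replicate 3 was the highest sample and untreated replicate 1 the lowest, and all groups overlapped. As with Kcnc1, the 2 spots of the first array of untreated replicate 1 lay apart, at -5.36 and -3.19, while those of its repeat array read -3.26 and -3.08.

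The difference of Kcnd3 probe 1 was 0.21 at 2 h and 0.25 at 12 h, each with an SE of 0.24. Without 2 h replicate 3 the 2 h value was -0.13, and with the repeat array alone for untreated replicate 1 the 12 h value was 0.07. Probe 2 (A_64_P113414) had the smallest p of the members in the F test among treatment times, at 0.106 (limma, adjusted p 1.00). Its mean was -4.63 ± 0.24 (SD, n = 3) at 6 h and -4.18 ± 0.25 (SD, n = 3) at 12 h, with -4.36 ± 0.18 (SD, n = 3) in untreated samples. Probes 3 (A_64_P028390) and 4 (A_64_P028396) were dim: probe 3 was well above background on 15 of 16 arrays, and its 12 h difference of -0.34 (SE 0.24) was -0.11 without 12 h replicate 3. At 12 h probes 1 and 2 were higher and probes 3 and 4 lower than in untreated samples. For probe 4 the 12 h replicates 1, 2 and 3 read -5.26, -5.59 and -6.15, beside an untreated mean of -5.59, so its direction rested on replicate 3.

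**Figure D4:**
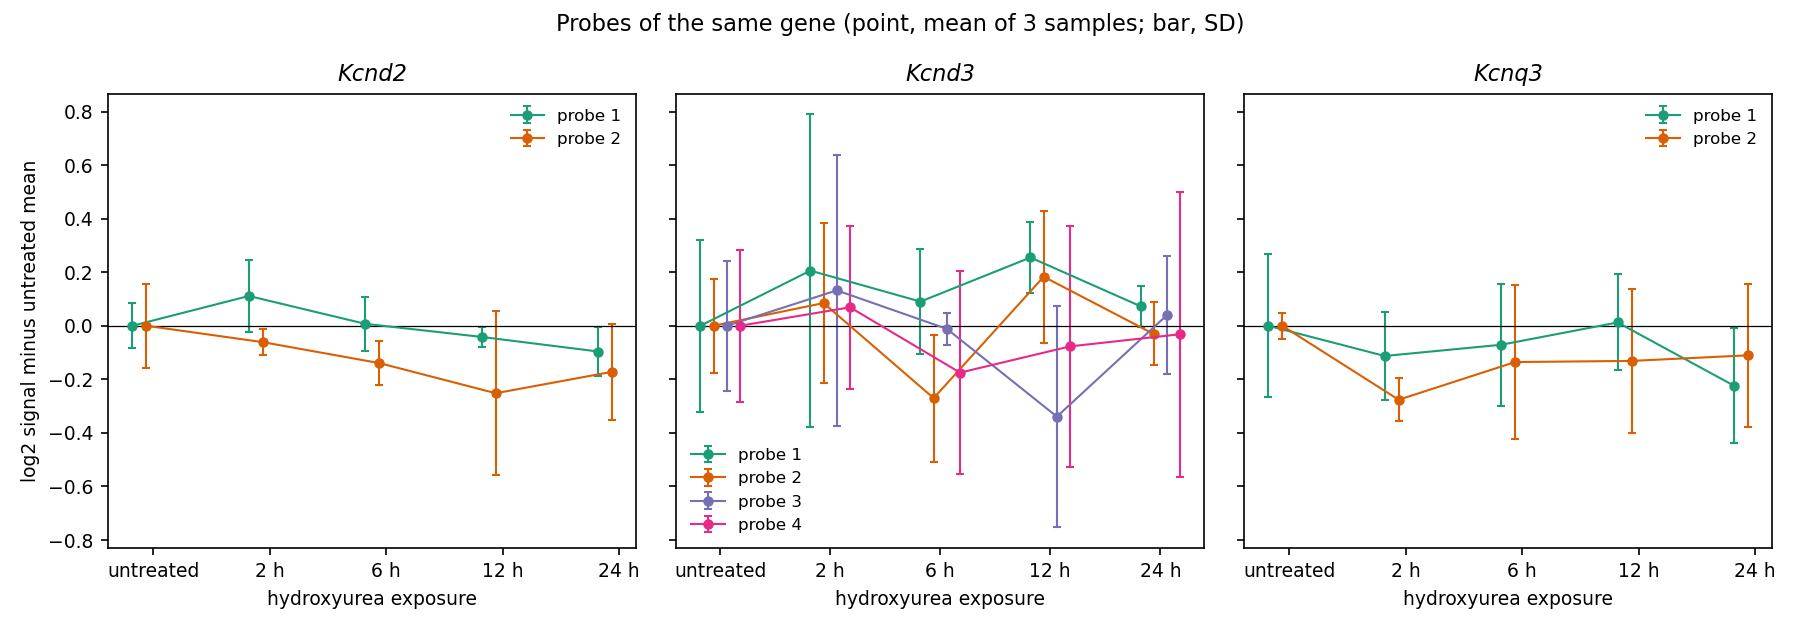
Log2 signal of each probe of Kcnd2, Kcnd3 and Kcnq3 minus its untreated mean, as the mean of 3 samples (point) with their SD (bar), by hydroxyurea exposure. The bars overlap 0 at most times, and the 4 Kcnd3 probes split in direction at 12 h, from 0.25 for probe 1 to -0.34 for probe 3. For the 2 lower probes, 3 and 4, the lowest 12 h sample was replicate 3.

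Kcnq3, a subunit of the M-current, was read by a bright and a dim probe. Probe 1 (A_64_P094327) measured -0.79, -1.04 and -1.32 in untreated samples, -1.05, -1.09 and -1.35 at 2 h, and -1.01, -0.97 and -1.38 at 6 h. At 12 h it gave -0.95, -0.92 and -1.24, and at 24 h -1.40, -1.40 and -1.03. The untreated samples spanned most of the whole range, and 2 of 3 samples at 24 h were below all of them. The 24 h difference was -0.22 (SE 0.17), with a 95% interval of -0.59 to 0.14.

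Probe 2 of Kcnq3 (A_64_P094322) was tight in untreated samples, at -4.66, -4.74 and -4.65, and lower in all 3 samples at 2 h, at -4.87, -5.02 and -4.99. Its difference at 2 h was -0.28 (SE 0.17, 1.21-fold lower), with an unadjusted p of 0.130 and an adjusted p of 1.00 from limma. At 6, 12 and 24 h it was -0.14, -0.13 and -0.11, and the samples overlapped the untreated ones. With normexp background correction, which added an offset of 50 to every signal, the 2 h value was 0.01. With median pixel signals less the local background it was -0.15. The bright probe of the same gene gave -0.11 (SE 0.17) at 2 h.

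The GIRK1 gene Kcnj3 (probe A_44_P452163) differed between samples by up to 1.11. Its level was -0.83, -1.11 and -1.41 in untreated samples, -0.90, -0.70 and -1.28 at 2 h, and -1.11, -1.27 and -1.29 at 6 h. The 12 h samples gave -0.30, -1.08 and -0.76, and those at 24 h -1.36, -1.33 and -0.45. The 2 highest samples were 12 h replicate 1 and 24 h replicate 3, and every treated group overlapped the untreated one. The difference at 12 h was 0.40 (SE 0.26, 1.32-fold higher), with an unadjusted p of 0.137 and an adjusted p of 0.997 from limma.

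Both of these high samples were on slide 1. Over arrays, Kcnj3 averaged -0.82 on slide 1 and -1.18 on slide 2, with 8 arrays on each, a gap exceeded in size by 5.25% of the tested probes. Slide 1 held 1 sample at 12 h and 1 at 24 h, which are these same samples, so its differences of 0.60 and 0.45 restate them. Within slide 2, with 2 samples at each time, the difference was 0.27 at 12 h and -0.16 at 24 h. The parts of the slide and of the replicate number in the spread of Kcnj3 were not tested.

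Kcnj6, the GIRK2 gene (probe A_44_P182270), had its lowest group means at 12 and 24 h. Its level was -3.97, -4.48 and -4.30 in untreated samples, -4.32, -4.26 and -4.36 at 2 h, and -4.35, -4.58 and -4.26 at 6 h. At 12 h it was -4.57, -4.67 and -4.66, and at 24 h -4.30, -4.81 and -4.66. The 12 h samples lay close together and below every untreated sample, and 2 of 3 did so at 24 h, where replicate 1 fell within the untreated range. No treated sample was above the highest untreated one, replicate 1, but that value holds 1 stray spot of its first array. The repeat array of that sample read -4.36. Above it and above untreated replicates 2 and 3 lay 2 h replicate 2 and 6 h replicate 3, both at -4.26. So did 24 h replicate 1, at -4.300 beside -4.305 in untreated replicate 3.

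The log2 difference of Kcnj6 was -0.06 at 2 h, -0.14 at 6 h, -0.38 at 12 h and -0.34 at 24 h, each with an SE of 0.15. The 12 h value was 1.30-fold lower, with a 95% interval of -0.71 to -0.06, an unadjusted p of 0.0240 and an adjusted p of 0.997 from limma. At 24 h, where the signal was 1.26-fold lower, limma gave an unadjusted p of 0.0416 and an adjusted p of 1.00. The mean of the 4 times gave -0.23 (SE 0.12), and the F test among the times gave an unadjusted p of 0.146 and an adjusted p of 1.00 from limma.

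Here too the highest sample was untreated replicate 1, and 1 spot of its first array stood out. The 2 spots read -4.40 and -2.78, from processed intensities of 83.0 and 255, although their median pixel signals were 142 and 136. The repeat array read -4.41 and -4.31. With the repeat array alone, Kcnj6 gave -0.25 at 12 h and -0.21 at 24 h. Median pixel signals less the local background, an alternative chosen after these spots were seen, gave -0.31 and -0.22. Normexp correction, with its offset of 50 added to every signal, gave 0.01 and 0.02, while the median over all probes at 12 h moved to 0.11.

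On slide 2, 2 samples at 12 h (-4.67 and -4.66) lay below the repeat array of untreated replicate 1 (-4.36) and untreated replicate 3 (-4.30), a difference of -0.33. Slide 1 held 1 sample at 12 h, at -4.57, beside -4.48 in untreated replicate 2 and -3.59 on the array with the stray spot, so its difference of -0.54 rests largely on that spot. At 12 h astrocyte markers were higher for 9 of 9 tested, with a median of 0.12, and none was called. Their summed log2 level was 6.10 to 6.36, against 5.79 to 6.27 in untreated samples. Neuronal markers at 12 h were higher for 5 of 9, with a median of 0.09. The part of cell composition in the Kcnj6 value was not tested.

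The partners of the GIRK subunits did not pass the test either. Of 16 listed receptors and G protein subunits, 13 were tested, and 7 were higher and 6 lower at both 12 and 24 h, with medians of 0.04 and 0.01. Gabbr1, a subunit of the GABA-B receptor, had a difference of 0.13 (SE 0.10) in the mean of the 4 times, and Gng3, a G protein γ subunit, had -0.16 (SE 0.11). Kcnj9, which encodes GIRK3 and was picked here as the remaining neuronal subunit, gave 0.27 (SE 0.15) at 12 h. Among the 6 other inward rectifiers tested, 4 were higher and 2 lower at 24 h, with Kcnj4 at 0.21 (SE 0.20) and Kcnj11, the pore of the ATP-sensitive channel, at -0.14 (SE 0.14) in the mean of the 4 times.

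Among the 27 other voltage-gated alpha subunits tested, 22 were lower and 5 higher at 24 h, with a median of -0.07, beside the 45.8% lower over all probes. Of 9 neuronal markers tested, 6 were lower and 3 higher at 24 h, with a median of -0.08. The part of cell composition in these values was not tested. The list of alpha subunits had 17 lower and 10 higher at 12 h, with a median of -0.03. None of these subunits was called, and 0 had an unadjusted p under 0.05 in limma at any time. Kcnq5, another M-current subunit, gave -0.22 (SE 0.12) and Kcnv2, a modifier subunit that is silent alone, gave 0.25 (SE 0.15) in the mean of the 4 times.

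The auxiliary list, which holds subunits and clustering proteins, had 17 genes tested, of which 9 were higher and 8 lower at 2 h. At both 6 and 12 h 11 were higher and 6 lower, with medians of 0.06 and 0.08. At 24 h 11 were lower and 6 higher, with a median of -0.04. Abcc9, the regulatory SUR2 subunit of ATP-sensitive channels, was at -0.48 (SE 0.18) at 2 h and -0.34 (SE 0.14) in the mean of the 4 times. Its unadjusted p was 0.0187 and 0.0304, and its adjusted p was 1.00 in both (limma). The Abcc9 probe was dim, with an untreated mean of -6.21. Kcnip2, which encodes a KChIP partner of Kv4 channels, gave 0.30 (SE 0.17) in the mean, with positive values at all 4 times. Lgi1, a secreted protein that associates with Kv1 channels, was named after its value was seen, and gave -0.25 (SE 0.11) at 12 h, with an unadjusted p of 0.0383.

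The calcium- and sodium-activated channels had 6 genes tested, all of them lower at 6 h, with a median of -0.08, and 3 lower and 3 higher at 24 h. Kcnn1, a small-conductance channel, gave -0.22 (SE 0.18) and Kcnt2, a sodium-activated channel, gave -0.15 (SE 0.13) in the mean of the 4 times. Of the 9 two-pore-domain leak channels tested, 6 were lower at 24 h, with a median of -0.04. Kcnk6 gave 0.29 (SE 0.18) and Kcnk5 gave -0.08 (SE 0.09) in the mean. No gene of the 6 lists was called at any time.

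**Figure D5:**
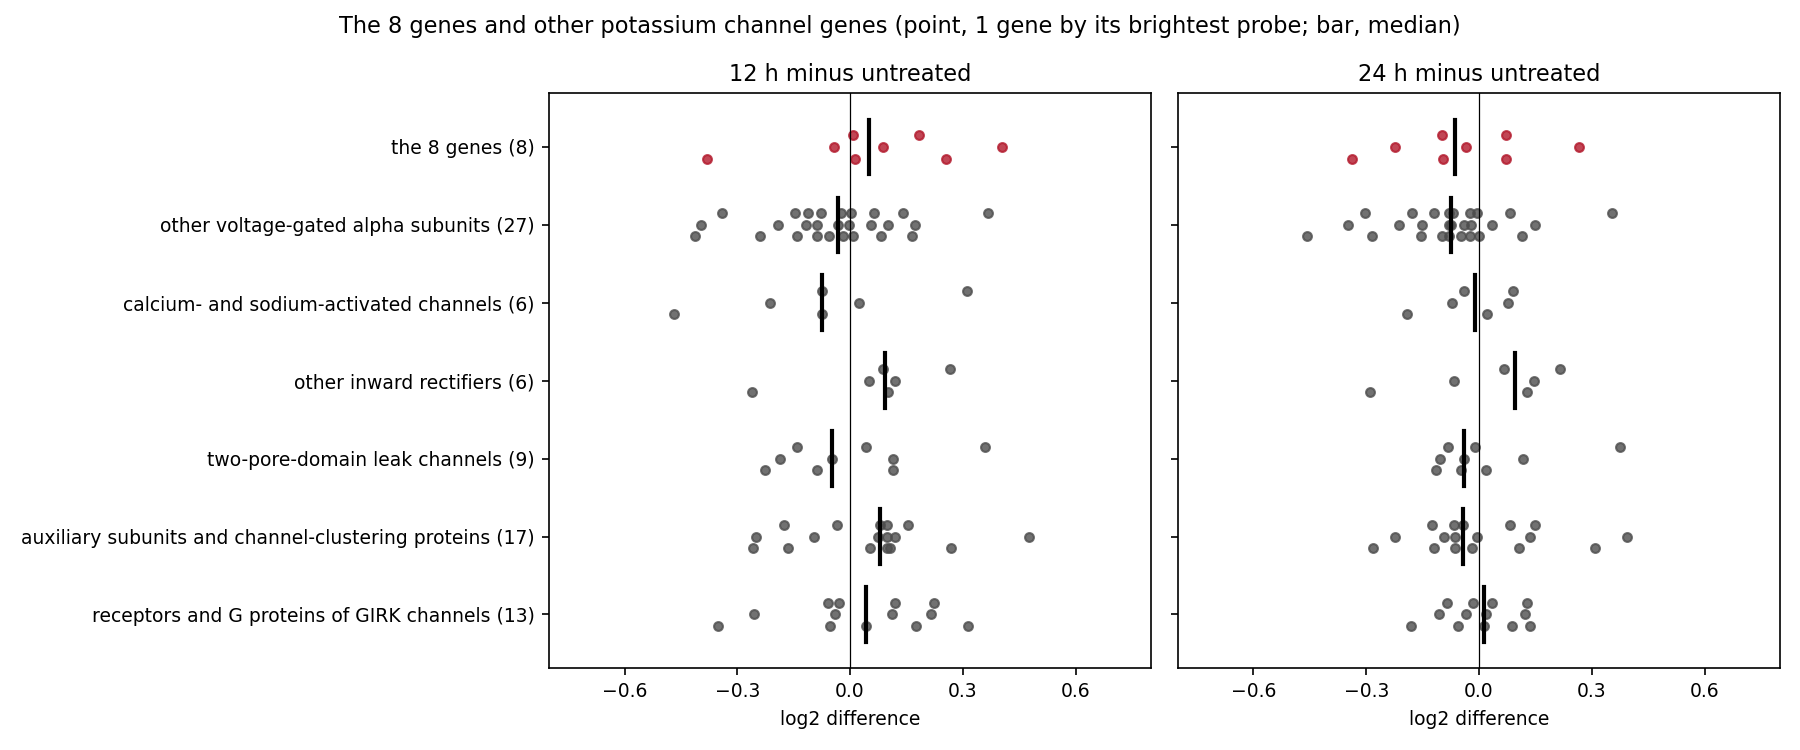
Log2 difference from untreated at 12 h (left) and 24 h (right) for the 8 genes and for 6 lists of other potassium channel genes and partners, 1 point a gene by its probe of highest mean, with the list's median (bar) and the number tested in parentheses. Medians of the lists lie within 0.1 of 0, and at 24 h 22 of the 27 other voltage-gated alpha subunits are left of 0.

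The members were also compared with each other over the 15 samples, as a description in which all points share array and slide. The highest correlation between probes of different genes was 0.79, between Kcna2 and probe 1 of Kcnd3, and it was 0.79 without 12 h replicate 3. Both of these probes had 2 h replicate 3 as their highest sample. Kcnj6 and probe 2 of Kcnd2 correlated at 0.71, or 0.79 without that replicate, and Kcnj3 and probe 1 of Kcnq3 at 0.57. Kcna1 and Kcnj3 ran in opposite directions, at -0.54.

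Over all named genes, the patterns most like that of Kcnj3 were those of Or10g9b (r = 0.98) and Tiam1 (r = 0.97). Both also averaged higher on slide 1 than on slide 2, by 0.38 and 0.36 on the log2 scale, against 0.37 for Kcnj3. For Kcnd3 the nearest were Ank3 (r = 0.91) and Wnt7b (r = 0.88), which like its probe 1 were lower on slide 1, by values of -0.24, -0.37 and -0.30. For Kcnq3 they were Pou3f3 (r = 0.89) and Pabir2 (r = 0.87), with slide 1 above slide 2 by 0.27 and 0.41, against 0.23 for Kcnq3. The RNA of untreated replicate 1, run on both slides, read -0.80 on slide 1 and -0.78 on slide 2 for Kcnq3 probe 1. For Kcnj3 it read -0.69 and -0.96, and for Kcnd3 probe 1 -4.27 and -3.17. Since slide and replicate number largely coincided, which of them these differences follow was not tested.

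The remaining members had neighbours with smaller slide differences, between -0.19 and 0.04 for Kcna1, Kcna2, Kcnc1 and Kcnd2, and up to 0.06 for Kcnj6. Kcna2 was nearest to Cbll1 and Taok3 (r = 0.91 for both), and Kcna1 to Cntn3 (r = 0.85) and Prrt1 (r = 0.83). Kcnc1 was nearest to Timd2 (r = 0.92) and Pou3f2 (r = 0.89), and without untreated replicate 1, whose Kcnc1 value holds the low spot, these were 0.82 and 0.70. Kcnd2 was nearest to Ppp3cb and Mapk9 (r = 0.84 for both), and Kcnj6 to Mgat4a (r = 0.83) and Mpped1 (r = 0.79), or 0.80 and 0.71 without untreated replicate 1. Over 14 samples, without 12 h replicate 3, these correlations were 0.81 to 0.99 for all 8 members.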

How the data were processed

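Each of the 16 deposited scanner files gives the intensity of every spot, per the file headers from Agilent software (Feature Extraction 11.5.1.1): background-subtracted within an array, not scaled between arrays; the design names rat build rn4. The authors' deposited score per array, of unstated scale, matched each array's own file at r = 0.999996, except that 24 h replicates 1 and 3 matched each other's (0.991 with their own); column medians were -0.03 to 0.03. Scanner files were used as labelled, and which labels are right was not tested. Summed fibroblast and pericyte markers were 1.46 in 24 h replicate 1 and 0.69 in 24 h replicate 3. Untreated replicates 1 and 3 had 1.05 and 1.44. Means of the 24 h group do not depend on these labels, but statements on single 24 h replicates and the replicate block do.

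Of 62976 spots, 4259 control spots and flagged outliers were left out, and spots of a probe were averaged. Values are log2 processed signal minus the array's 75th percentile; the 2 arrays of untreated replicate 1 were averaged. Probes entered the fit where 1 group or more had them well above background on all its arrays. Accessions were matched without versions to RefSeq genes (18758 of 30367 probes).

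Groups were compared in limma 3.58.1 (R 4.3.3, data.table version 1.17.8), 1 two-sided fit over 15 samples without covariates (degrees of freedom: 10 residual, 3.61 prior); p-values were adjusted by Benjamini-Hochberg over 20278 probes at a threshold of 0.05. The script was tested on simulated data. The number of arrays limits the precision.

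The 8 genes and the lists were chosen with earlier results of these data known. Beyond the 8, the rule named the 2 genes of each list with the smallest unadjusted p in the mean of the 4 times, and for each of the 8 the 2 genes of highest Pearson r. The alternatives were 33 settings. Normexp, with an offset of 50, was planned on mean pixel signals. It was run on median ones, since the scanner files used here have no mean signal column.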

Additional observations from a re-analysis of the deposited data

How the results depend on the processing

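Over 33 alternative settings no member probe was called in any comparison, and the count of probes called over the whole array was 0 in all of them except at 12 h within slide 1, where it was 4 (limma), in a fit whose 12 h arm is 1 sample assumed to vary like the other groups. Of 2110 recomputed member values, 2059 stayed within 1 SD of the reported value, 26 moved further and 25 turned in sign by over 1 SD; 210 in all turned in sign. Normexp background correction on median pixel signals added an offset of 50 to every signal, which weighs most on dim probes. With it, Kcnq3 probe 2 turned to 0.00549, 0.16, 0.14 and 0.11 at the 4 times and 0.11 in their mean. Kcnj6 turned to 0.12, 0.00654 and 0.0203 at 6, 12 and 24 h and 0.0658 in the mean. Kcnd3 probe 4 turned to 0.19 at 6 h and Kcnd3 probe 3 to 0.14 at 12 h. The part of the offset in these values was not tested. Within slide 1 Kcnd2 probe 1 gave 0.10 and 0.0939 at 12 and 24 h, Kcnd3 probes 3 and 4 gave 0.0443 and 0.42 at 12 h, and Kcna2 gave 0.27 at 24 h; within slide 2 Kcna1 gave 0.13 and Kcnc1 -0.19 at 2 h, Kcnj6 0.0715 at 6 h and Kcnc1 -0.27 at 12 h; these fits hold fewer samples, with 1 sample at 12 h and 1 at 24 h on slide 1. Leaving out 1 sample at a time, Kcnc1 ranged from -0.11 to 0.58 at 2 h, -0.26 to 0.42 at 12 h, -0.18 to 0.50 at 24 h and -0.0805 to 0.60 in the mean, always lowest without untreated replicate 1, and Kcnd3 probe 1 ranged from -0.13 to 0.38 at 2 h. With the replicate block 0 probes were called; in this balanced design a block leaves differences as they were (Kcnj6 -0.38 at 12 h), and the SE of Kcnj6 was 0.13 and that of Kcnc1 0.32. Deviations of same-numbered samples correlated at -0.42 to 0.41, and all 5 pairs below -0.1 hold 24 h replicate 1 or 3, whose deposited scores match each other's file. The other 22 pairs ran from -0.00208 to 0.41, with a median of 0.18 and 18 of them over 0.1. Pairs of different number, 60 in all, had a median of -0.08, with 11 over 0.1. These 60 include pairs that hold 24 h replicate 1 or 3. All 30 same-numbered pairs had a median of 0.13, with 19 over 0.1. Deviations from a group mean sum to 0 within the group, so positive same-numbered values push the other pairs down. By this measure same-numbered samples were more alike than others, and 12 of 15 samples correlated best with their own number. Slide and number largely coincided, and their parts were not tested. The main fit did not use the numbers as pairs, and a block fit with 24 h replicates 1 and 3 exchanged was not run. The planned random block for sample within the slide fit could not be fitted, since 1 sample alone has 2 arrays; the slide was a fixed term with each array of that sample at a reduced weight. Kcnc1 and Kcnd3 probe 3 were each well above background on 15 of 16 arrays, which limits their values.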
